A study of Mus musculus with 12 samples.

Results

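The collagen chain genes described here are the 44 protein-coding genes whose GENCODE M21 mouse symbol is Col, a number, a and a number. They were found among 53801 gene identifiers in read counts of C2C12 cells, an established line of mouse muscle precursors (myoblasts). By class, 11 encode fibrillar chains, 6 encode basement membrane chains of type IV and 6 encode type VI chains. Another 9 encode fibril-associated collagens with interrupted helices (FACIT), and 12 encode other chains. The 4 groups held 3 libraries each. They were Cebpg knockdown cells given thapsigargin for 6 h, Cebpg knockdown cells given DMSO for 6 h, control cells given thapsigargin for 6 h and control cells given DMSO for 6 h. Cebpg encodes C/EBP gamma, a leucine zipper protein that pairs with ATF4, and thapsigargin blocks the calcium pump of the endoplasmic reticulum (ER) and so causes ER stress. The design asks how loss of Cebpg alters the response to that stress. The knockdown is marked in the sample titles by the single label Sh2. What the control cells received, and whether either population is a single clone, was not stated in the labels, and the knockdown and any other lasting difference between the populations cannot be told apart. The source field names C2C12 for every library, whereas the growth protocol names HeLa cells. The labels do not tie replicates to separate cultures, and the p-values below therefore reflect the spread among libraries, which may be technical.

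Collagen chains enter the ER while they are made, are hydroxylated there and fold into helical trimers before they are exported and trimmed. The fibrillar chains of types I, III and V build the fibrils of connective tissue, type IV forms the network of basement membranes, including that around muscle fibres, and type VI forms beaded microfibrils beside it. Human mutations in the chains of type VI cause muscular dystrophies. Col6a1 mRNA has been described in mouse cells as a substrate of the ER stress sensor IRE1; no cleavage was measured here.

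Sequence upstream of the start is shown for the 3 type VI chains that build the classical type VI trimer, since their changes differed in size, and for Col3a1, the chain with the highest level in control cells with DMSO. The sequences are from RefSeq (GRCm38.p6), read 5′ to 3′ on the strand of the gene and cut where an annotated exon begins. Capitals mark TATAAA, the letters of a TATA box, in Col3a1 and CCGCCC, which is GGGCGG on the other strand and the letters of a GC box, in Col6a2.
Col6a1, chr10:76726169-76726294, minus strand: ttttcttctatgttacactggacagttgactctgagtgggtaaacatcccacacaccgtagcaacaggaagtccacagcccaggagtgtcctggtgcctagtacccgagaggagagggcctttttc
Col6a2, chr10:76623631-76623880, minus strand: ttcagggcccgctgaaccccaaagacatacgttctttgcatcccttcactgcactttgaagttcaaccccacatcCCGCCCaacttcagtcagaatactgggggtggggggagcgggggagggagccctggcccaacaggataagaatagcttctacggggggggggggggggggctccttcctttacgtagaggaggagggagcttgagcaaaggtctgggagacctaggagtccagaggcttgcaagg
Col6a3, chr1:90843972-90844221, minus strand: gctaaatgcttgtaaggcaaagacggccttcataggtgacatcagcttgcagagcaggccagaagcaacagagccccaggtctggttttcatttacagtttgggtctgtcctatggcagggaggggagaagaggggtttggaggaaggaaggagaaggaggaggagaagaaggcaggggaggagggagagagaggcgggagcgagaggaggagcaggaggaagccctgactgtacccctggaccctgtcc
Col3a1, chr1:45311288-45311537, plus strand: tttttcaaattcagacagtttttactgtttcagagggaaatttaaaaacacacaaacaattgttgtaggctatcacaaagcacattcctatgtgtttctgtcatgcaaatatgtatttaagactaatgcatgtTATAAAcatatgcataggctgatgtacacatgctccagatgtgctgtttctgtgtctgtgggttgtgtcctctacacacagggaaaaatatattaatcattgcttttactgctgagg
The 5 motifs searched on both strands were the letters CCAAT of a CCAAT box, the letters TATAAA of a TATA box, the letters GGGCGG of a GC box, the letters TGACTCA of an AP-1 site and the letters TGATGNAAT of a composite site of C/EBP and ATF proteins. Neither the Col6a1 nor the Col6a3 stretch held any of them, but the stretches are not alike. That of Col6a1 has 126 bases and ends 124 bases before the RefSeq start, whereas that of Col6a3 has 250 bases and reaches it. Over whole windows of 250 bases before to 50 after the start, 35 of the 44 genes were searched. The other 9, which are Col1a1, Col2a1, Col4a3, Col5a2, Col9a3, Col12a1, Col14a1, Col22a1 and Col26a1, were not analysed here. These genes had 38 windows, and a gene was counted once if any of its windows held the motif, whereas the background counts single windows. GGGCGG was in 22 of the 35 genes (62.9%) and in 23 of the 38 windows, against 35.7% of all 32851 windows. CCAAT was in 13 genes, against 37.4% of all windows, and TATAAA in 5, against 13.6%. TGACTCA was in 1 gene, Col6a1, in bases after those printed, against 5.20% of all windows. TGATGNAAT was in 0 of the 35 genes, against 0.965% of all windows, which says only that these letters are not in those windows.

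Libraries held 29.42 to 47.72 M reads assigned to genes, with a median of 34.57 M. Levels are given as counts per M gene reads scaled by the TMM method (CPM) and, between genes, as reads per kb of exon and per M gene reads (RPKM). Cebpg was at 5.66 ± 0.42 CPM in knockdown cells with thapsigargin and 4.51 ± 0.72 CPM in knockdown cells with DMSO, against 216 ± 4 CPM in control cells with thapsigargin and 54.6 ± 5.2 CPM in control cells with DMSO (mean ± SD, n = 3 each). All 6 of the myoblast markers Myod1, Myf5, Des, Cdh15, Itga7 and Chrna1 averaged at least 1 CPM in every group. Their summed level was 1894 to 1989 CPM in knockdown cells with thapsigargin and 1969 to 2098 CPM in knockdown cells with DMSO, against 1959 to 2031 CPM in control cells with thapsigargin and 2377 to 2611 CPM in control cells with DMSO. Members of that sum moved in opposite directions with the treatment. Myf5 averaged 416.4 CPM in knockdown cells with thapsigargin and 73.6 CPM in knockdown cells with DMSO, against 251.6 CPM in control cells with thapsigargin and 61.8 CPM in control cells with DMSO. Des averaged 544.9 CPM in knockdown cells with thapsigargin and 764.4 CPM in knockdown cells with DMSO, against 783.9 CPM in control cells with thapsigargin and 1186 CPM in control cells with DMSO. Of 4 markers each, leukocyte markers summed to 2.22 to 7.13 CPM and adipocyte markers to 0.815 to 1.89 CPM over all libraries. Epithelial markers summed to at most 7.39 CPM and endothelial markers, chiefly Tek, to at most 27.3 CPM, both with their highest values under thapsigargin. In the 3 control DMSO libraries Ptprc, Cd52, Epcam, Krt18, Cidec and Acan were at 0 reads. Tendon or cartilage markers summed to 153.8 to 182.3 CPM, nearly all of it from Scx and Sox9. The others on that list, Tnmd and Acan, averaged at most 0.030 and 0.060 CPM in any group. In knockdown cells Scx averaged 95.2 CPM with thapsigargin and 55.3 CPM with DMSO, and Sox9 73.3 and 118.7 CPM. In control cells Scx averaged 54.5 CPM with thapsigargin and 50.9 CPM with DMSO, and Sox9 108.4 and 105.8 CPM. The part of these cells in the collagen values was not tested.

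Collagen chains took up 0.525% of gene reads in knockdown cells with thapsigargin and 0.919% in knockdown cells with DMSO, against 0.641% in control cells with thapsigargin and 1.32% in control cells with DMSO (medians of 3 libraries). Summed per length, the chains came to 535.4 ± 31.5 RPKM in knockdown cells with thapsigargin, 1022 ± 43.2 RPKM in knockdown cells with DMSO, 719.6 ± 46.5 RPKM in control cells with thapsigargin and 1437 ± 14.1 RPKM in control cells with DMSO (SD, n = 3). The libraries of the 4 groups did not overlap in that sum, and in bulk samples fewer cells of a type and less RNA per cell cannot be told apart. A mean of at least 1 RPKM was reached by 17 chains in knockdown cells with thapsigargin, 19 in knockdown cells with DMSO, 17 in control cells with thapsigargin and 17 in control cells with DMSO.

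The order of the chains by RPKM differed between the groups, and it also depended on the length used. With the union of all annotated exons as length, the order was as follows. In control cells with DMSO, Col3a1 averaged 431.5 RPKM, followed by Col1a2 at 223 RPKM, Col6a1 at 148 RPKM, Col5a2 at 123.9 RPKM, Col6a3 at 99.4 RPKM and Col5a1 at 90.2 RPKM, and the libraries of neighbours in that order did not overlap. In control cells with thapsigargin, Col3a1 at 127.1 RPKM and Col5a2 at 121.2 RPKM overlapped at the top. In knockdown cells with DMSO, Col3a1 was at 207.1 RPKM, Col1a2 at 135.1 RPKM and Col4a1 at 114.6 RPKM, without overlap between neighbours. In knockdown cells with thapsigargin, Col5a2 stood first at 92.7 RPKM, above Col3a1 at 83.6 RPKM, Col1a2 at 66.4 RPKM and Col4a1 at 55.5 RPKM. There the libraries of Col5a2 ranged over 90.1 to 96.9 RPKM and those of Col3a1 over 74.2 to 88.6 RPKM, which do not overlap, whereas Col4a1 and the next chain, Col5a1 at 54.2 RPKM, overlapped. With the length of the longest transcript in its place, a setting added after the data were seen, Col1a2 at 154.3 RPKM, Col3a1 at 147.6 RPKM and Col5a2 at 134.3 RPKM led in knockdown cells with thapsigargin, and neighbours overlapped. In knockdown cells with DMSO, Col3a1 at 365.3 RPKM and Col1a2 at 313.8 RPKM then overlapped, and Col5a2 came next. In control cells with thapsigargin, Col1a2 at 254.9 RPKM then stood above Col3a1 at 224.3 RPKM and Col5a2 at 175.4 RPKM without overlap. Control cells with DMSO still had Col3a1 first and Col1a2 next, followed by Col5a2 at 179.4 RPKM and Col6a1 at 158.1 RPKM.

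**Figure D1:**
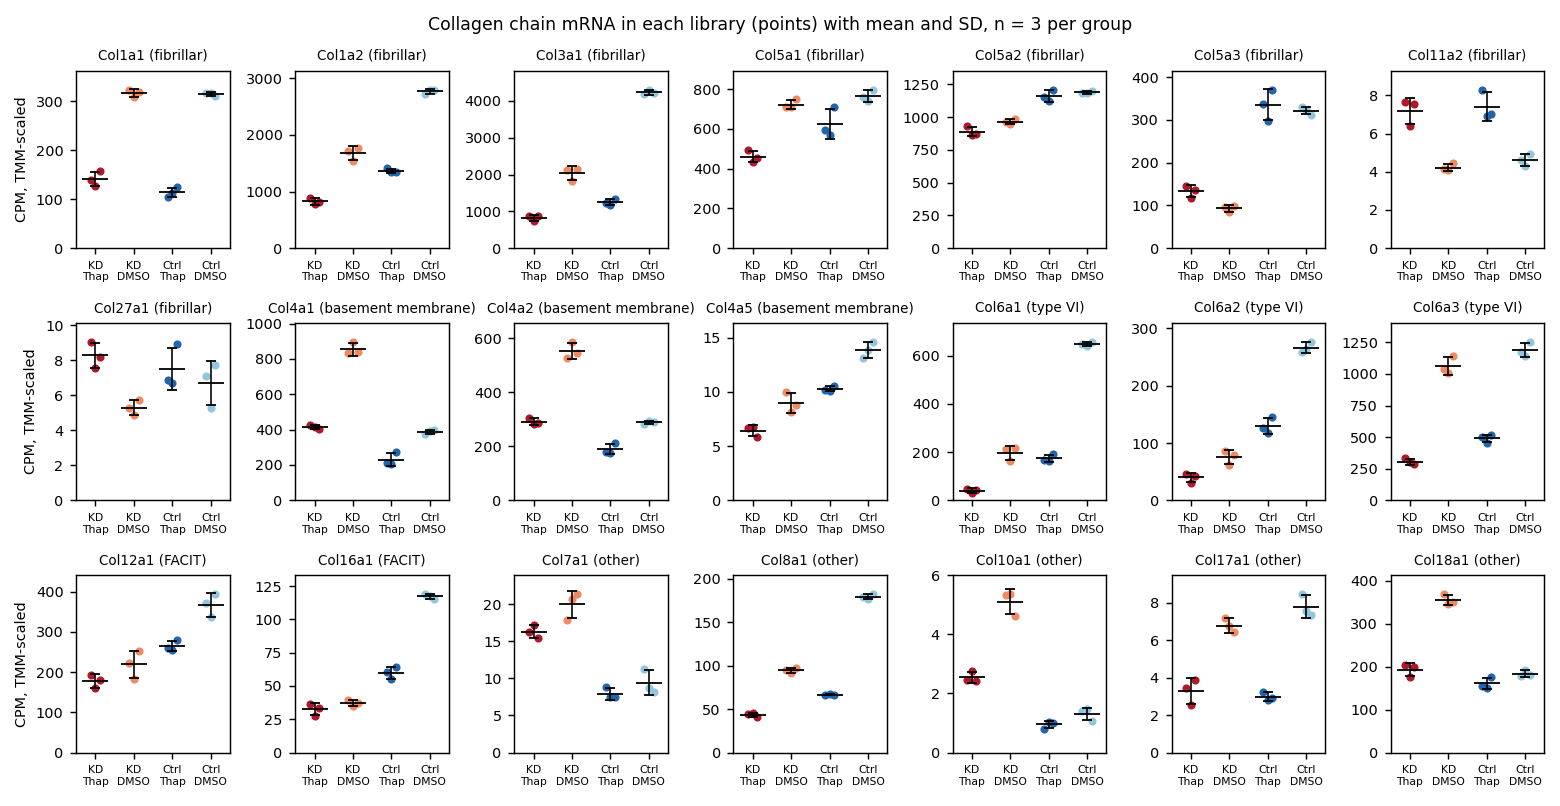
Level of the most abundant collagen chain genes in CPM, 1 panel per gene, with 1 point per library and the mean and SD of 3 libraries in each group (KD, knockdown; Ctrl, control; Thap, thapsigargin). Col3a1 and Col6a1 stand highest in control cells with DMSO, and Col4a1 and Col18a1 stand highest in knockdown cells with DMSO.

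Of the 44 genes, 33 passed the filter on low counts and were tested, and 11 were not. With DMSO, 7 chains rose and 16 fell in knockdown cells against control cells, beside 25.0% of all 15828 genes tested that rose and 26.5% that fell (adjusted p under 0.05, edgeR). The chains that rose were 21.2% of those tested, near the background, and those that fell were 48.5%. The median log2 change of the 33 chains was -0.30, against 0.00 over all genes. With thapsigargin, 10 chains rose and 17 fell in knockdown cells against control cells, beside 28.5% and 28.4% of all genes, with a median of -0.40 against 0.02. Knockdown and thapsigargin comparisons share groups of libraries with each other, so their counts are not separate evidence.

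Thapsigargin against DMSO gave 9 chains that rose and 18 that fell in control cells, beside 37.7% and 37.0% of all genes tested. The chains that rose were 27.3% of those tested, the chains that fell 54.5%, and the median log2 change was -0.33, against 0.00 over all genes. In knockdown cells 10 chains rose and 18 fell, beside 35.4% and 34.4% of all genes, with a median of -0.29. The difference between the thapsigargin effects, knockdown minus control, was above 0 for 8 chains and below 0 for 5 at the same threshold, beside 17.6% and 17.7% of all genes, and 20 chains did not pass. That median was 0.00, against 0.01 over all genes. Since a chain high in a single group passes the filter through that group, these counts describe the 33 chains tested and not all 44.

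**Figure D2:**
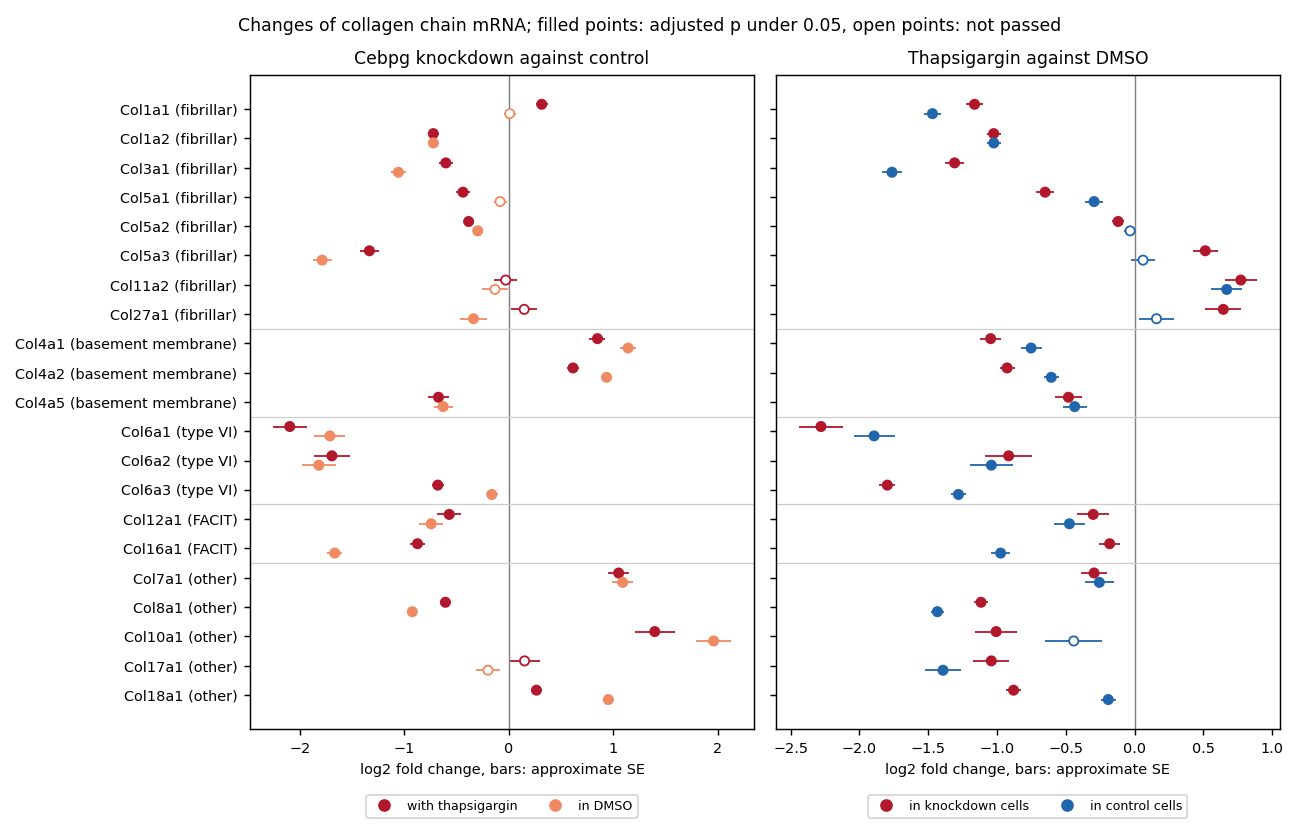
Log2 fold change of the 21 chains with a mean of at least 5 CPM in some group, with approximate SE bars, for knockdown against control (left, with thapsigargin and in DMSO) and thapsigargin against DMSO (right, in knockdown and control cells); filled points have an adjusted p under 0.05. All 3 type VI chains lie left of 0 in both panels, whereas Col4a1, Col4a2 and Col18a1 lie right of 0 in the left panel and left of 0 in the right panel.

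Fibrillar chains were the bulk of collagen mRNA, at 63.6% of summed collagen RPKM in knockdown cells with thapsigargin and 57.8% in knockdown cells with DMSO, against 69.6% in control cells with thapsigargin and 67.2% in control cells with DMSO. Class shares depend on the length used. With the longest transcript, added after the data were seen, fibrillar chains held 70.3% and 66.2% in knockdown cells with thapsigargin and DMSO. In control cells with thapsigargin and DMSO they held 75.4% and 74.7%. All 11 fibrillar genes were tested. In knockdown cells 1 rose and 6 fell with DMSO, beside 25.0% and 26.5% of all genes, and 3 rose and 6 fell with thapsigargin, beside 28.5% and 28.4%. Under thapsigargin 4 rose and 5 fell in knockdown cells, near the 35.4% and 34.4% of all genes, and 2 rose and 5 fell in control cells, beside 37.7% and 37.0%. Reports of single chains follow in CPM, and each SE is approximate.

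Col3a1 encodes the single chain of type III collagen, found with type I in elastic tissues. It stood at 864, 729 and 869.9 CPM in knockdown cells with thapsigargin and 2133, 1815 and 2150 CPM in knockdown cells with DMSO. Control libraries held 1235, 1171 and 1338 CPM with thapsigargin and 4185, 4308 and 4214 CPM with DMSO. No library of one group reached the range of another. The knockdown lowered it in DMSO (log2 change -1.06, SE 0.07, adjusted p = 3.73e-10) and less with thapsigargin (log2 change -0.60, SE 0.07, adjusted p = 5.59e-07). Thapsigargin lowered it in knockdown cells (log2 change -1.31, SE 0.07, adjusted p = 5.81e-12) and in control cells (log2 change -1.76, SE 0.07, adjusted p = 4.30e-14). The thapsigargin effects differed by 0.46, knockdown minus control, with an adjusted p of 0.00127. Gm47302 shares 1.44% of the exon bases of Col3a1, and how reads in those bases were counted was not stated.

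Col1a1 and Col1a2 encode the chains of type I collagen, the main collagen of bone, skin and tendon. Col1a2 stood at 882, 774 and 819.6 CPM in knockdown cells with thapsigargin and 1717, 1539 and 1778 CPM in knockdown cells with DMSO. In control cells it was at 1408, 1337 and 1344 CPM with thapsigargin and 2722, 2801 and 2788 CPM with DMSO. Its libraries did not overlap between any of the 4 groups. Col1a2 fell in knockdown cells by the same log2 change to 2 decimals in DMSO (log2 change -0.72, SE 0.05, adjusted p = 8.03e-14) and with thapsigargin (log2 change -0.72, SE 0.05, adjusted p = 4.08e-14). It fell with thapsigargin in knockdown cells (log2 change -1.02, SE 0.05, adjusted p = 3.51e-18) and in control cells (log2 change -1.02, SE 0.05, adjusted p = 1.70e-18), and the difference of these effects was 0.00 (adjusted p = 1).

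Its partner Col1a1 stood at 139.8, 128 and 157 CPM in knockdown cells with thapsigargin and 324, 308 and 318 CPM in knockdown cells with DMSO, against 105, 112 and 124 CPM in control cells with thapsigargin and 318, 316 and 310.3 CPM in control cells with DMSO. The DMSO libraries of both populations overlapped, and those with thapsigargin did not. Col1a1 did not pass for the knockdown in DMSO (log2 change 0.01, SE 0.06, adjusted p = 0.928), and it was higher in knockdown cells with thapsigargin (log2 change 0.31, SE 0.06, adjusted p = 5.33e-05). Thapsigargin lowered it in knockdown cells (log2 change -1.16, SE 0.06, adjusted p = 7.88e-16) and in control cells (log2 change -1.47, SE 0.06, adjusted p = 2.79e-18), with a difference of 0.31 (adjusted p = 0.00434).

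Type V chains start and limit the fibrils of type I. Col5a1 stood at 492, 435 and 452 CPM in knockdown cells with thapsigargin and 708, 708 and 749.8 CPM in knockdown cells with DMSO, against 594, 569 and 709.9 CPM in control cells with thapsigargin and 758, 741 and 797 CPM in control cells with DMSO. The DMSO libraries of both populations overlapped, and those with thapsigargin did not. The knockdown change did not pass in DMSO (log2 change -0.08, adjusted p = 0.278) and was a fall with thapsigargin (log2 change -0.44, SE 0.06, adjusted p = 3.09e-06). Thapsigargin lowered Col5a1 in knockdown cells (log2 change -0.65, SE 0.06, adjusted p = 5.27e-09) and in control cells (log2 change -0.29, SE 0.06, adjusted p = 0.000229). The difference was -0.36 (adjusted p = 0.00312), and -0.20 (adjusted p = 0.121) when libraries were scaled by total gene reads. Genes antisense to or overlapping Col5a1 share 2.5% of its exon bases.

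Col5a2 stood at 929, 864 and 875 CPM in knockdown cells with thapsigargin and 964, 947 and 988 CPM in knockdown cells with DMSO, against 1151, 1125 and 1210 CPM in control cells with thapsigargin and 1183, 1181 and 1203 CPM in control cells with DMSO. Its control libraries overlapped between the treatments, and all knockdown libraries lay below all control libraries. The knockdown lowered it in DMSO (log2 change -0.30, SE 0.04, adjusted p = 3.89e-07) and with thapsigargin (log2 change -0.39, SE 0.04, adjusted p = 1.65e-09). The thapsigargin change in control cells did not pass (log2 change -0.03, adjusted p = 0.493), and the fall in knockdown cells (log2 change -0.12, adjusted p = 0.0127) did not pass when libraries were scaled by total gene reads (log2 change 0.00, adjusted p = 0.994) or when the other groups were left out of the fit (-0.10, adjusted p = 0.0548).

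Col5a3 encodes a further type V chain, found in muscle and fat. It stood at 145, 117 and 136 CPM in knockdown cells with thapsigargin and 95.7, 84 and 99.5 CPM in knockdown cells with DMSO, against 338, 298 and 371 CPM in control cells with thapsigargin and 329, 323 and 313 CPM in control cells with DMSO. Every knockdown library was below every control library. The knockdown lowered Col5a3 in DMSO (log2 change -1.79, SE 0.09, adjusted p = 1.38e-09) and with thapsigargin (log2 change -1.34, SE 0.09, adjusted p = 1.60e-08). It rose with thapsigargin in knockdown cells (log2 change 0.51, SE 0.09, adjusted p = 0.000192) and did not pass in control cells (log2 change 0.06, adjusted p = 0.534), and the difference of 0.45 passed (adjusted p = 0.0124).

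Col11a2 encodes a chain of type XI collagen, mainly of cartilage. Its level was low, at 7.64, 6.42 and 7.55 CPM in knockdown cells with thapsigargin and 4.14, 4.07 and 4.45 CPM in knockdown cells with DMSO, against 8.3, 6.89 and 7.03 CPM in control cells with thapsigargin and 4.63, 4.32 and 4.94 CPM in control cells with DMSO. Knockdown and control libraries overlapped within each treatment, and thapsigargin libraries lay above DMSO libraries in both populations. Thapsigargin raised it in knockdown cells (log2 change 0.77, SE 0.12, adjusted p = 6.18e-07) and in control cells (log2 change 0.67, SE 0.11, adjusted p = 3.18e-06), and the knockdown changes did not pass (adjusted p = 0.384 in DMSO and 0.827 with thapsigargin).

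Col27a1 encodes a fibrillar chain of cartilage. It stood at 9.05, 7.58 and 8.19 CPM in knockdown cells with thapsigargin and 5.27, 4.89 and 5.73 CPM in knockdown cells with DMSO, against 6.88, 6.72 and 8.91 CPM in control cells with thapsigargin and 7.08, 5.3 and 7.75 CPM in control cells with DMSO. Thapsigargin raised it in knockdown cells (log2 change 0.64, SE 0.13, adjusted p = 5.72e-05), where the libraries did not overlap, and did not pass in control cells (log2 change 0.16, adjusted p = 0.251). The knockdown change in DMSO (log2 change -0.34, adjusted p = 0.0323) lost its call without control DMSO replicate 1 (adjusted p = 0.105) or 3 (0.21) or knockdown DMSO replicate 1 (0.072) or 2 (0.114), and with limma-voom (0.0634). The difference of the thapsigargin effects, 0.49 (adjusted p = 0.0348), lost its call in 8 of 12 fits that left out 1 library. These left out replicate 1 or 3 of control DMSO, 1 or 2 of control thapsigargin, 1 or 2 of knockdown DMSO and 1 or 3 of knockdown thapsigargin (log2 difference 0.37 to 0.49, adjusted p = 0.0559 to 0.13). DESeq2 gave an adjusted p of 0.0513 for it.

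Col4a1 and Col4a2, the main basement membrane chains, rose in knockdown cells and fell with thapsigargin. Basement membrane chains made up 18.8% of summed collagen RPKM in knockdown cells with thapsigargin and 19.6% in knockdown cells with DMSO, against 8.49% in control cells with thapsigargin and 6.81% in control cells with DMSO. With the longest transcript as length, these shares were 14.2% and 14.7% in knockdown cells with thapsigargin and DMSO. In control cells with thapsigargin and DMSO they were then 6.15% and 4.76%. Of the 6 type IV genes 4 were tested. With the knockdown 2 rose and 1 fell in DMSO (25.0% and 26.5% of all genes), and 2 rose and 2 fell with thapsigargin (28.5% and 28.4% of all genes). Under thapsigargin 0 rose and 3 fell in knockdown cells (35.4% and 34.4% of all genes), and 1 rose and 3 fell in control cells (37.7% and 37.0%). Col4a5 fell in all 4 comparisons, and the fall of Col4a4 in knockdown cells with thapsigargin lost its call without control thapsigargin replicate 3 (adjusted p = 0.0521) or knockdown thapsigargin replicate 2 (0.0706).

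Col4a1 and Col4a2 encode the chains of the most widespread type IV trimer. Col4a1 stood at 424, 414 and 405 CPM in knockdown cells with thapsigargin and 833, 897 and 837 CPM in knockdown cells with DMSO. Control cells were at 211, 208 and 272 CPM with thapsigargin and 374, 394 and 395 CPM with DMSO. No group overlapped its counterpart in any of the 4 comparisons, and knockdown cells with thapsigargin lay just above control cells with DMSO. The knockdown raised Col4a1 in DMSO (log2 change 1.14, SE 0.08, adjusted p = 2.52e-09) and with thapsigargin (log2 change 0.85, SE 0.08, adjusted p = 7.18e-08). It fell with thapsigargin in knockdown cells (log2 change -1.05, SE 0.08, adjusted p = 2.68e-09) and in control cells (log2 change -0.75, SE 0.08, adjusted p = 1.57e-07). The difference of the thapsigargin effects, -0.29 (adjusted p = 0.0434), lost its call in 8 of 12 fits without 1 library. These left out any replicate of control DMSO, any replicate of knockdown thapsigargin, or replicate 2 or 3 of knockdown DMSO (log2 difference -0.32 to -0.26, adjusted p = 0.0548 to 0.129). It also did not pass when libraries were scaled by total gene reads (-0.14, adjusted p = 0.344) or with DESeq2 (-0.30, adjusted p = 0.0797).

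Col4a2 stood at 305, 281 and 287 CPM in knockdown cells with thapsigargin and 528, 587 and 546 CPM in knockdown cells with DMSO, against 181, 177 and 214 CPM in control cells with thapsigargin and 284, 296 and 289.6 CPM in control cells with DMSO. Knockdown cells with DMSO were highest, control cells with thapsigargin lowest, and the remaining groups overlapped. The knockdown raised Col4a2 in DMSO (log2 change 0.94, SE 0.06, adjusted p = 2.75e-14) and with thapsigargin (log2 change 0.61, SE 0.06, adjusted p = 1.44e-10). Col4a2 fell with thapsigargin in knockdown cells (log2 change -0.93, SE 0.06, adjusted p = 8.66e-15) and in control cells (log2 change -0.61, SE 0.06, adjusted p = 7.85e-11). The difference was -0.32 (adjusted p = 0.00169), and -0.16 (adjusted p = 0.0986) when libraries were scaled by total gene reads. Col4a1 and Col4a2 lie head to head on chromosome 8 (Col4a1 at 11198423 to 11312826 on the minus strand and Col4a2 at 11312805 to 11449287 on the plus strand, GRCm38), and their first exons share 22 bases.

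Col4a5 encodes a type IV chain known from the kidney, mutated in Alport syndrome. It stood at 6.67, 6.81 and 5.84 CPM in knockdown cells with thapsigargin and 10.0, 8.17 and 8.79 CPM in knockdown cells with DMSO, against 10.2, 10.1 and 10.5 CPM in control cells with thapsigargin and 13.2, 13.9 and 14.6 CPM in control cells with DMSO. Every knockdown library was below every control library of its treatment. Col4a5 fell with the knockdown in DMSO (log2 change -0.63, SE 0.09, adjusted p = 5.20e-07) and with thapsigargin (log2 change -0.67, SE 0.10, adjusted p = 3.46e-07), and with thapsigargin in knockdown cells (log2 change -0.48, SE 0.10, adjusted p = 7.18e-05) and control cells (log2 change -0.44, SE 0.09, adjusted p = 4.51e-05). Its head-to-head neighbour Col4a6 on chromosome X was not tested, with at most 16 reads in any library.

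The 3 abundant type VI chains fell in both the knockdown and the thapsigargin comparisons. Type VI chains made up 7.42% of summed collagen RPKM in knockdown cells with thapsigargin and 13.97% in knockdown cells with DMSO, against 13.4% in control cells with thapsigargin and 19.4% in control cells with DMSO. With the longest transcript as length, the type VI shares were 6.3% and 11.4% in knockdown cells with thapsigargin and DMSO. In control cells with thapsigargin and DMSO they were then 10.98% and 14.9%. Of the 6 genes 5 were tested. With the knockdown 0 rose and 4 fell in DMSO (25.0% and 26.5% of all genes), and 1 rose and 4 fell with thapsigargin (28.5% and 28.4%). Under thapsigargin 2 rose and 3 fell in each population, beside 35.4% and 34.4% of all genes in knockdown cells and 37.7% and 37.0% in control cells. Col6a1, Col6a2 and Col6a3 were among those that fell in all 4 comparisons.

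Col6a1 (chromosome 10, 76708792 to 76726168, minus strand) stood at 46.3, 30.9 and 44.7 CPM in knockdown cells with thapsigargin and 213, 165 and 215 CPM in knockdown cells with DMSO. In control cells it stood at 168, 164 and 192 CPM with thapsigargin and 648, 639.9 and 657 CPM with DMSO. Control cells with DMSO were highest by a wide margin, knockdown cells with thapsigargin lowest, and the remaining groups overlapped. The knockdown lowered Col6a1 in DMSO (log2 change -1.71, SE 0.15, adjusted p = 1.05e-05) and with thapsigargin (log2 change -2.10, SE 0.16, adjusted p = 3.11e-06). Col6a1 also fell with thapsigargin in knockdown cells (log2 change -2.28, SE 0.16, adjusted p = 1.13e-06) and in control cells (log2 change -1.89, SE 0.15, adjusted p = 2.09e-06). The difference of the thapsigargin effects, -0.39, did not pass (adjusted p = 0.211), but passed with limma-voom (-0.39, adjusted p = 0.0234).

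Col6a2 (chromosome 10, 76595762 to 76623630, minus strand) lies 85161 bp from Col6a1 on the same strand. It stood at 45.8, 30.8 and 43 CPM in knockdown cells with thapsigargin and 85.3, 61 and 79.9 CPM in knockdown cells with DMSO. Control libraries held 125, 118 and 145 CPM with thapsigargin and 258, 264 and 276 CPM with DMSO. None of the 4 groups overlapped. The knockdown lowered Col6a2 in DMSO (log2 change -1.82, SE 0.16, adjusted p = 1.27e-05) and with thapsigargin (log2 change -1.70, SE 0.17, adjusted p = 2.18e-05), and thapsigargin lowered it in knockdown cells (log2 change -0.92, SE 0.17, adjusted p = 0.00111) and control cells (log2 change -1.04, SE 0.16, adjusted p = 0.000226). The difference of 0.13 did not pass (adjusted p = 0.726). Knockdown replicate 2 was the lowest of its group in both treatments for Col6a1 and Col6a2. Without knockdown DMSO replicate 2 the knockdown changes in DMSO were -1.60 for Col6a1 and -1.69 for Col6a2, and without knockdown thapsigargin replicate 2 those with thapsigargin were -1.94 and -1.54, all still past the threshold.

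Col6a3 (chromosome 1, 90765923 to 90843971, minus strand) stood at 332, 300.1 and 284 CPM in knockdown cells with thapsigargin and 1037, 1006 and 1142 CPM in knockdown cells with DMSO. Levels in control cells were 497, 457 and 516 CPM with thapsigargin and 1171, 1144 and 1254 CPM with DMSO. Thapsigargin libraries lay far below DMSO libraries in both populations, while the DMSO libraries of the populations nearly touched. Thapsigargin lowered Col6a3 in knockdown cells (log2 change -1.80, SE 0.06, adjusted p = 2.90e-20) and in control cells (log2 change -1.28, SE 0.06, adjusted p = 1.95e-17), and the difference of -0.52 passed (adjusted p = 8.25e-06). The knockdown lowered it with thapsigargin (log2 change -0.68, SE 0.06, adjusted p = 5.19e-11). In DMSO the knockdown change was small (log2 change -0.16, SE 0.06, adjusted p = 0.016) and lost its call without control DMSO replicate 3 (adjusted p = 0.0948), knockdown DMSO replicate 1 (0.0654) or knockdown DMSO replicate 2 (0.0899).

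**Figure D3:**
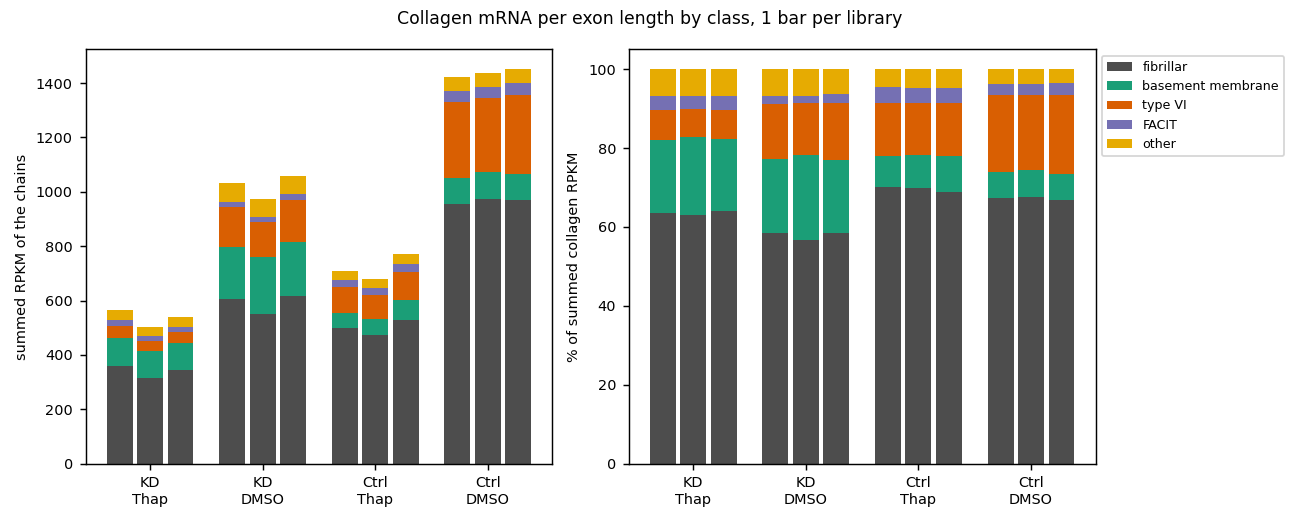
Collagen mRNA by class, with the union of all annotated exons as length and 1 stacked bar per library. The left panel gives summed RPKM and the right panel the share of each class in summed collagen RPKM. Basement membrane chains hold on average 18.8% and 19.6% in knockdown cells with thapsigargin and DMSO, above 8.49% and 6.81% in control cells. Type VI chains are lowest, at a mean of 7.42%, in knockdown cells with thapsigargin.

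Of the 9 FACIT genes, 5 were tested and 2 had a mean of at least 5 CPM. With the knockdown 1 rose and 3 fell in each treatment, beside 25.0% and 26.5% of all genes in DMSO and 28.5% and 28.4% with thapsigargin. Under thapsigargin 3 rose and 2 fell in each population, beside 35.4% and 34.4% of all genes in knockdown cells and 37.7% and 37.0% in control cells. Col12a1 encodes a chain on the surface of type I fibrils, needed for muscle strength in mice. It stood at 193, 159.8 and 181 CPM in knockdown cells with thapsigargin and 223, 183 and 251 CPM in knockdown cells with DMSO, against 259, 255 and 279 CPM in control cells with thapsigargin and 372, 336 and 394 CPM in control cells with DMSO. Knockdown libraries lay below control libraries in each treatment. The knockdown lowered it in DMSO (log2 change -0.74, SE 0.11, adjusted p = 0.000364) and with thapsigargin (log2 change -0.57, SE 0.12, adjusted p = 0.0018), and thapsigargin lowered it in control cells (log2 change -0.47, SE 0.11, adjusted p = 0.00358). In knockdown cells the treatments overlapped and the call for thapsigargin (log2 change -0.30, adjusted p = 0.0405) was lost in 6 of 12 fits without 1 library. These left out control thapsigargin replicate 1 or 3, knockdown DMSO replicate 1 or 3 or knockdown thapsigargin replicate 2 or 3 (log2 change -0.32 to -0.20, adjusted p = 0.0519 to 0.111). It was also lost with DESeq2 size factors (adjusted p = 0.0529), with total gene reads (0.222) and when the other groups were left out (0.0936).

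Col16a1 encodes a chain found on fibrils and near basement membranes. It stood at 36.7, 27.6 and 33.2 CPM in knockdown cells with thapsigargin and 39.1, 34.8 and 36.9 CPM in knockdown cells with DMSO. Control cells had 60.5, 54.9 and 64.2 CPM with thapsigargin and 119, 117 and 116 CPM with DMSO. The control groups stood well apart from each other and from the knockdown groups, which overlapped. The knockdown lowered Col16a1 in DMSO (log2 change -1.67, SE 0.07, adjusted p = 1.46e-15) and with thapsigargin (log2 change -0.88, SE 0.07, adjusted p = 2.64e-10). Thapsigargin lowered it in control cells (log2 change -0.97, SE 0.07, adjusted p = 3.87e-12), and the difference of 0.79 passed (adjusted p = 1.23e-06). The small fall in knockdown cells (log2 change -0.18, adjusted p = 0.0397) lost its call without knockdown DMSO replicate 1 (adjusted p = 0.133) or 3 (0.0718) or knockdown thapsigargin replicate 2 (0.294) or 3 (0.0632). Scaled by total gene reads it was -0.06 (adjusted p = 0.521), and DESeq2 did not call it (0.0585).

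Of the 12 other genes 8 were tested. With the knockdown 3 rose and 2 fell in each treatment, where 25.0% and 26.5% of all genes did so in DMSO and 28.5% and 28.4% with thapsigargin. Under thapsigargin 1 rose and 5 fell in each population, where 35.4% and 34.4% of all genes did so in knockdown cells and 37.7% and 37.0% in control cells. Col18a1, Col8a1, Col7a1, Col10a1 and Col17a1 had a mean of at least 5 CPM in some group. Col18a1 (chromosome 10, 77052178 to 77166548, minus strand) encodes a basement membrane chain that carries heparan sulphate and yields endostatin. It stood at 204, 177 and 199 CPM in knockdown cells with thapsigargin and 369.5, 345 and 352 CPM in knockdown cells with DMSO. In control cells it stood at 156, 151 and 176 CPM with thapsigargin and 178, 192 and 182 CPM with DMSO. Knockdown cells with DMSO stood far above the other groups. The knockdown raised Col18a1 in DMSO (log2 change 0.95, SE 0.05, adjusted p = 1.24e-14) and less with thapsigargin (log2 change 0.26, SE 0.06, adjusted p = 0.000156). With thapsigargin it fell in knockdown cells (log2 change -0.88, SE 0.05, adjusted p = 1.85e-14) and in control cells (log2 change -0.19, SE 0.05, adjusted p = 0.00268), and the difference of -0.69 passed (adjusted p = 3.28e-08).

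Col8a1 encodes a chain of the short network collagen under endothelia and in the cornea. It stood at 43.8, 45.9 and 41.1 CPM in knockdown cells with thapsigargin and 94.7, 91.3 and 97.4 CPM in knockdown cells with DMSO, against 65.8, 67.1 and 66.3 CPM in control cells with thapsigargin and 179, 177 and 182 CPM in control cells with DMSO. None of the 4 groups overlapped. It fell with the knockdown in DMSO (log2 change -0.93, SE 0.05, adjusted p = 1.41e-17) and with thapsigargin (log2 change -0.61, SE 0.05, adjusted p = 1.29e-12), and with thapsigargin in knockdown cells (log2 change -1.12, SE 0.05, adjusted p = 8.73e-20) and in control cells (log2 change -1.43, SE 0.05, adjusted p = 1.46e-23). The difference of 0.32 passed (adjusted p = 0.000277).

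Col7a1 encodes the chain of the anchoring fibrils of skin. It stood at 16.2, 17.2 and 15.5 CPM in knockdown cells with thapsigargin and 17.9, 20.6 and 21.3 CPM in knockdown cells with DMSO, against 8.81, 7.46 and 7.42 CPM in control cells with thapsigargin and 11.3, 8.73 and 8.12 CPM in control cells with DMSO. Every knockdown library was above every control library. The knockdown raised it in DMSO (log2 change 1.09, SE 0.10, adjusted p = 8.71e-11) and with thapsigargin (log2 change 1.05, SE 0.10, adjusted p = 2.05e-10). Thapsigargin lowered it in knockdown cells (log2 change -0.29, adjusted p = 0.00607), though not when libraries were scaled by total gene reads (-0.18, adjusted p = 0.101). In control cells the change (log2 change -0.26, adjusted p = 0.0324) lost its call without control DMSO replicate 1 (-0.11, adjusted p = 0.382), control thapsigargin replicate 2 (adjusted p = 0.115) or control thapsigargin replicate 3 (adjusted p = 0.0983), and with DESeq2 (adjusted p = 0.0663).

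Col10a1, the type X chain of growth plate cartilage, and Col17a1, a transmembrane chain of skin cells, were low. Col10a1 stood at 2.47, 2.75 and 2.41 CPM in knockdown cells with thapsigargin and 5.34, 5.37 and 4.63 CPM in knockdown cells with DMSO, against 0.804, 1.04 and 1.01 CPM in control cells with thapsigargin and 1.4, 1.46 and 1.07 CPM in control cells with DMSO. Every knockdown library was above every control library. The knockdown raised it in DMSO (log2 change 1.96, SE 0.17, adjusted p = 1.19e-11) and with thapsigargin (log2 change 1.40, SE 0.19, adjusted p = 1.26e-07), and thapsigargin lowered it in knockdown cells (log2 change -1.01, SE 0.15, adjusted p = 6.51e-07). The thapsigargin change in control cells did not pass (log2 change -0.44, adjusted p = 0.0558), although it passed without control DMSO replicate 3 (-0.57, adjusted p = 0.0233). Col17a1 stood at 3.44, 2.53 and 3.88 CPM in knockdown cells with thapsigargin and 7.18, 6.78 and 6.42 CPM in knockdown cells with DMSO, against 3.25, 2.82 and 2.89 CPM in control cells with thapsigargin and 8.47, 7.59 and 7.34 CPM in control cells with DMSO. Its thapsigargin libraries lay below its DMSO libraries in both populations. Thapsigargin lowered Col17a1 in knockdown cells (log2 change -1.04, SE 0.13, adjusted p = 2.11e-08) and in control cells (log2 change -1.39, SE 0.13, adjusted p = 1.63e-11), and the knockdown changes did not pass (adjusted p = 0.157 in DMSO and 0.394 with thapsigargin).

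Ratios of RPKM between chains that share a trimer differed between groups, and they were not tested. The length used sets the size of a ratio and not its order between groups. Col6a1 to Col6a2 was 1.93 ± 0.04 in knockdown cells with thapsigargin and 5.00 ± 0.22 in knockdown cells with DMSO, against 2.57 ± 0.07 in control cells with thapsigargin and 4.63 ± 0.13 in control cells with DMSO (SD, n = 3). Every thapsigargin library was thus below every DMSO library, and the knockdown and control DMSO libraries overlapped. Col1a1 to Col1a2 was 0.325 ± 0.033 in knockdown cells with thapsigargin and 0.358 ± 0.020 in knockdown cells with DMSO, against 0.158 ± 0.017 in control cells with thapsigargin and 0.215 ± 0.005 in control cells with DMSO. All knockdown libraries lay above all control libraries.

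The ratio of Col4a1 to Col4a2 was 1.26 ± 0.04 in knockdown cells with thapsigargin and 1.37 ± 0.02 in knockdown cells with DMSO, against 1.07 ± 0.05 in control cells with thapsigargin and 1.19 ± 0.02 in control cells with DMSO. Over all 12 libraries it ranged from 1.04 to 1.40, and knockdown libraries lay above control libraries in each treatment. Col5a1 to Col5a2 was 0.584 ± 0.015 in knockdown cells with thapsigargin and 0.844 ± 0.014 in knockdown cells with DMSO, against 0.606 ± 0.050 in control cells with thapsigargin and 0.727 ± 0.020 in control cells with DMSO. The thapsigargin libraries of both populations overlapped in it, and the DMSO libraries did not.

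**Figure D4:**
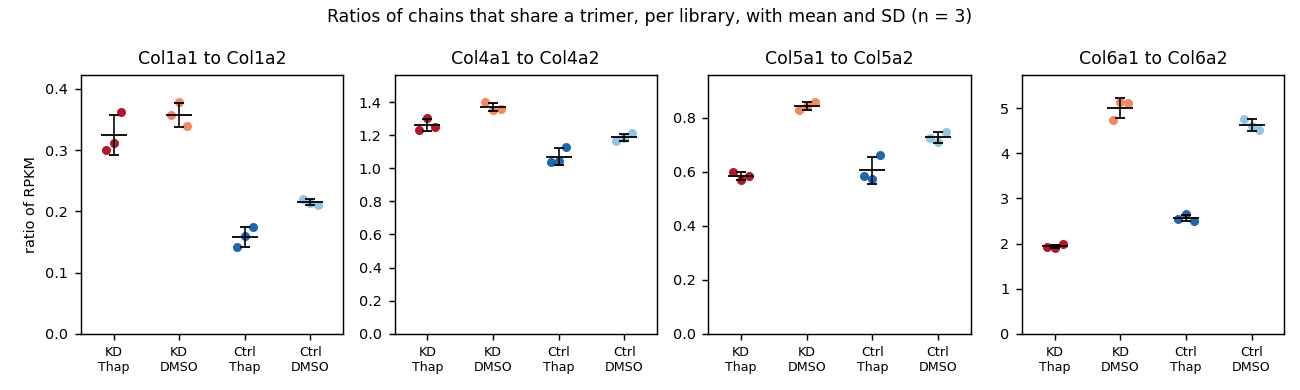
Ratio of RPKM between chains that share a trimer, with 1 point per library and the mean and SD of 3 libraries in each group. The ratio of Col6a1 to Col6a2 is 1.93 and 2.57 with thapsigargin, below 5.00 and 4.63 with DMSO, and that of Col1a1 to Col1a2 is higher in knockdown than in control cells.

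The 12 chains that were tested but stayed below 5 CPM in every group are Col2a1, Col4a4, Col6a4, Col6a5, Col8a2, Col9a3, Col11a1, Col14a1, Col15a1, Col20a1, Col23a1 and Col24a1. Col2a1, the main cartilage chain, rose with thapsigargin in both populations and held 138, 110 and 150 reads in knockdown cells with thapsigargin and 17, 23 and 18 in knockdown cells with DMSO, against 67, 63 and 91 in control cells with thapsigargin and 5, 8 and 17 in control cells with DMSO. Col8a2, the partner of Col8a1, held 45, 31 and 59 reads in knockdown cells with thapsigargin and 17, 16 and 11 in knockdown cells with DMSO, against 57, 99 and 96 in control cells with thapsigargin and 103, 96 and 125 in control cells with DMSO. It fell with the knockdown in both treatments and rose with thapsigargin in knockdown cells, and the difference of the thapsigargin effects was 2.09 on the log2 scale and passed. Its fall with thapsigargin in control cells lost its call without control DMSO replicate 3 (adjusted p = 0.121) or control thapsigargin replicate 1 (0.102) or 2 (0.064), and with DESeq2 (0.0557). The rise of Col2a1 with the knockdown in DMSO lost its call without control DMSO replicate 1 (adjusted p = 0.169) or 2 (0.101) or knockdown DMSO replicate 2 (0.101).

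Col6a5 held 36, 31 and 32 reads in knockdown cells with thapsigargin and 1, 1 and 0 in knockdown cells with DMSO, against 18, 4 and 19 in control cells with thapsigargin and 0 in each control library with DMSO. Summed over the group, 41 reads in control cells with thapsigargin stood against 0 with DMSO. Per gene read scaled by TMM, the 95% exact lower limit of that ratio was 9.78. That limit covers counting error only and not the spread between libraries. In knockdown cells 99 reads with thapsigargin against 2 with DMSO gave a ratio of 49.8 on the same scale (95% exact interval 13.4 to 416.5, counting error only). Col6a5 passed the filter on low counts only through libraries with thapsigargin. That selection favours a rise with thapsigargin, so these ratios and limits are a description and no test of it. Its higher level in knockdown cells with thapsigargin lost its call without control thapsigargin replicate 2 (adjusted p = 0.0767). Col20a1 and Col9a3 rose with thapsigargin in both populations, and Col9a3 also rose with the knockdown in both treatments, although Tcfl5 shares 6.07% of its exon bases. Col14a1 and Col6a4 fell with the knockdown and rose with thapsigargin in both settings, Col24a1 fell with the knockdown in both, and Col15a1 passed in none of the 5 comparisons. Col11a1 was higher in knockdown than in control cells with thapsigargin. Its fall with thapsigargin in control cells lost its call without replicate 1 or 3 of control DMSO, 1 or 2 of control thapsigargin or 2 of knockdown thapsigargin (adjusted p = 0.0512 to 0.272). The difference of its thapsigargin effects lost its call without replicate 3 of control DMSO, 1 of control thapsigargin, 3 of knockdown DMSO or 3 of knockdown thapsigargin (0.0577 to 0.114). The rise of Col23a1 with thapsigargin in control cells lost its call without replicate 1 or 2 of either control group (0.0556 to 0.16).

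The 11 genes that were not tested held at most 22 reads in any library. They are Col4a3, Col4a6, Col6a6, Col9a1, Col9a2, Col13a1, Col19a1, Col22a1, Col25a1, Col26a1 and Col28a1. Col9a1 and Col13a1 had 0 reads in all 6 DMSO libraries and up to 8 reads with thapsigargin. Fitted without the filter on low counts, 6 of the 11 rose with thapsigargin in control cells (Col6a6, Col9a1, Col9a2, Col13a1, Col25a1 and Col28a1, adjusted p = 0.00183 to 0.0428, edgeR), beside 20.5% of the 33235 genes in that fit. In the other 4 comparisons of that fit 0 of the 11 passed, with an unadjusted p under 0.05 for 2 with the knockdown in DMSO, 1 for thapsigargin in knockdown cells and 0 in the remaining 2. Col4a3, whose start lies 71 bp from that of Col4a4 on chromosome 1, had at most 10 reads.

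Genes that act on collagen chains were counted by role. Of all genes tested 25.0% rose and 26.5% fell with the knockdown in DMSO, and 37.7% rose and 37.0% fell with thapsigargin in control cells. Of 17 tested genes for folding and hydroxylation, 3 rose and 8 fell in knockdown cells against control cells with DMSO. With thapsigargin in control cells 5 rose and 12 fell. P3h3, a hydroxylase of the P3H family, averaged 17.1 ± 0.96 CPM in knockdown cells with DMSO and 37.5 ± 1.3 CPM in control cells with DMSO (log2 change -1.13, adjusted p = 4.97e-15). P3h4, a scaffold for lysine hydroxylation, averaged 39.8 ± 2.3 CPM in control cells with thapsigargin and 174.9 ± 3.6 CPM in control cells with DMSO (log2 change -2.13, adjusted p = 8.29e-27). Of 10 tested genes for export and procollagen cleavage, 2 rose and 7 fell with the knockdown in DMSO. In control cells 4 rose and 5 fell with thapsigargin, among them Sec24d, a COPII coat gene, which averaged 567.9 ± 11.3 CPM with thapsigargin and 239.5 ± 11.3 CPM with DMSO (log2 change 1.25, adjusted p = 2.69e-21).

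The same shares of all genes, 25.0% up and 26.5% down with the knockdown in DMSO and 37.7% up and 37.0% down with thapsigargin in control cells, stand beside the other roles. Of 11 tested genes for cross-linking and fibril assembly, 2 rose and 9 fell with the knockdown in DMSO, and 1 rose and 10 fell with thapsigargin in control cells. Loxl1, a lysyl oxidase, averaged 60.5 ± 0.94 CPM in knockdown cells with DMSO and 143.7 ± 6.3 CPM in control cells with DMSO (log2 change -1.25, adjusted p = 2.00e-16). Pxdn, the peroxidase that cross-links type IV collagen, averaged 17.9 ± 0.27 CPM in control cells with thapsigargin and 181.8 ± 5.7 CPM in control cells with DMSO (log2 change -3.35, adjusted p = 3.74e-32). Of 11 genes on the breakdown list, 4 rose and 5 fell with the knockdown in DMSO, and 3 rose and 7 fell with thapsigargin in control cells. That list holds the metalloproteinase inhibitors Timp1, Timp2 and Timp3 beside proteases, so its counts give no direction of breakdown. Mmp13, a collagenase, averaged 9.82 ± 0.51 CPM in control cells with thapsigargin and 0.52 ± 0.20 CPM in control cells with DMSO (log2 change 4.23, adjusted p = 3.58e-20). Of 7 tested receptors, 1 rose and 3 fell with the knockdown in DMSO, and 2 rose and 3 fell with thapsigargin in control cells, near those shares. Ddr2, a receptor kinase for fibrillar collagen, averaged 669.8 ± 19.1 CPM in control cells with thapsigargin and 224.7 ± 20.8 CPM in control cells with DMSO (log2 change 1.58, adjusted p = 4.16e-14).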

How the data were processed

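Poly(A) RNA was sequenced from 12 libraries of C2C12 cells. The authors deposited raw read counts per gene for each library. Per the submitters' processing notes, Trim Galore, STAR 2.5.3a, bedtools 2.31.0, DESeq2 and the builds mm10 and hg38 were used, with no role or order given. How reads were counted, with which annotation and on which strand is not stated there, so genes that overlap others are uncertain.

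Of 53801 identifiers 53706 matched GENCODE M21 (GRCm38), which gave symbols, biotypes and union exon lengths. The 5 entries that name no gene held 13.32% to 14.61% of reads and were left out. Counts were tested with edgeR 4.0.16 (R 4.3.3): TMM scaling, its filter for low counts, a robust quasi-likelihood fit of 4 group means (8 residual degrees of freedom) and Benjamini-Hochberg adjustment over the 15828 genes tested, with calls under 0.05. Each SE was taken as the size of the log2 change over the root of the F value, which is an approximation. Chains with a mean of at least 5 CPM in some group are described with full values, and at most 3 genes per role list and comparison were eligible to be named, those with the largest changes among called genes with a mean of at least 5 CPM in some group. Collagen chain genes, classes, role lists and motifs were chosen with earlier results of these data known. The pipeline was tested on simulated data.

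Replicates differed by more than counting noise (chi-square per gene 2.51 to 9.84). Alternatives were other scalings and filters, DESeq2 1.42.0, limma-voom (limma 3.58.1), a replicate block, a fit of only the 2 groups compared and leaving out each library, and for RPKM the length of the longest transcript.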

Additional observations from a re-analysis of the deposited data

Results flagged for a closer look

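The thapsigargin effect differed between knockdown and control cells for 11 of the 21 chains with a mean of at least 5 CPM, by the test of the difference itself (edgeR, adjusted p under 0.05). Each value here is the log2 effect in knockdown cells minus that in control cells. Above 0 were Col16a1 (0.792), Col27a1 (0.486), Col3a1 (0.455), Col5a3 (0.453), Col8a1 (0.317) and Col1a1 (0.306). Below 0 were Col18a1 (-0.688), Col6a3 (-0.517), Col5a1 (-0.356), Col4a2 (-0.321) and Col4a1 (-0.294). The calls for Col27a1 and Col4a1 were lost in most fits that left out a library, as given above. Over all 33 chains tested, 8 passed above 0 (24.2%) and 5 below (15.2%), beside 17.6% and 17.7% of all genes tested. The 21 chains were chosen by level, so those shares are no like background for them. With the stricter filter of 1 CPM in 3 libraries, 2624 of 12973 genes passed above 0 and 2929 below.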

How the results depend on the processing

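Over 105 results of the 21 abundant chains, 2079 values were recomputed under the alternatives: 1988 kept their direction and side of the threshold, 59 lost a call, 5 gained one and 27 changed sign, of which 0 belonged to a called result. Scaling by total gene reads shifted the median of all genes by 0.133 for the knockdown with thapsigargin, 0.119 for thapsigargin in knockdown cells and 0.158 for the difference of the thapsigargin effects, so changes under it are relative to those shifts. Under it 2 chains, not 5, passed below 0 for that difference, and signs changed for Col1a1 with the knockdown in DMSO (-0.01725), Col11a2 with the knockdown under thapsigargin (0.1027) and, for the difference, Col1a2 (0.1571), Col4a5 (0.1128), Col5a2 (0.07103) and Col7a1 (0.1196). Without a filter on low counts 14 chains, not 9, rose with thapsigargin in control cells, 6 of them chains that the filter had left out, and the difference for Col1a2 was 0.01699. With a stricter filter the thapsigargin change of Col5a2 in control cells was 0.007114. The difference for Col1a2 was 0.001179 with limma-voom and 0.0005478 with the replicate block, which also ended the call for the difference of Col4a1 (-0.29, adjusted p = 0.0588). The other results of these chains kept their calls under that block. Deviations of same-numbered libraries across groups had correlations of -0.104 to 0.194 over 18 pairs (median 0.023, 3 above 0.1). Pairs with unlike numbers had -0.201 to 0.192 over 36 pairs (median -0.011, 2 above 0.1). Libraries were not taken as paired by number, although a weak pairing is not excluded. Summed collagen RPKM was lowest in replicate 2 of both knockdown groups, at 502.2 with thapsigargin and 974.2 with DMSO. Leaving out each library gave ranges that crossed 0 for Col1a1 with the knockdown in DMSO (-0.007906 to 0.02787), Col11a2 with the knockdown under thapsigargin (-0.08521 to 0.04968), Col5a3 with thapsigargin in control cells (-0.01802 to 0.1379) and, for the difference, Col1a2 (-0.06007 to 0.04252), Col4a5 (-0.111 to 0.03568), Col6a2 (-0.00664 to 0.2766) and Col7a1 (-0.1936 to 0.05473). The causes of these changes of sign were not tested. With the longest transcript as length, added after the data were seen, the mean RPKM of Col5a2 minus that of Col3a1 was -13.29 in knockdown cells with thapsigargin (9.107 with union exons), and that of Col1a2 minus that of Col3a1 was 6.749 there (-17.23) and 30.56 in control cells with thapsigargin (-17.45). Groups of 3 libraries and chains with few reads limit what can be seen.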

Other observations

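The genes that act on collagen chains were also counted in the other comparisons. For knockdown against control cells with thapsigargin, where 28.5% of all genes rose and 28.4% fell, 4 rose and 11 fell of 17 tested folding and hydroxylation genes, 2 rose and 7 fell of 10 export and cleavage genes, and 2 rose and 5 fell of 11 cross-linking and fibril assembly genes. Of 11 genes on the breakdown list, which includes the Timp inhibitors, 4 rose and 4 fell, and of 7 receptors 2 rose and 3 fell. For thapsigargin against DMSO in knockdown cells, where 35.4% of all genes rose and 34.4% fell, the counts of genes that rose and fell were 4 and 12 for folding and hydroxylation, 4 and 5 for export and cleavage, 1 and 9 for cross-linking and fibril assembly, 2 and 6 for breakdown and 1 and 2 for receptors.

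In the breakdown group, the collagenase Mmp13 averaged 29.8 ± 3.5 CPM in knockdown cells with thapsigargin and 3.31 ± 0.53 CPM in knockdown cells with DMSO, against 9.82 ± 0.51 CPM in control cells with thapsigargin and 0.52 ± 0.20 CPM in control cells with DMSO. The gelatinase Mmp9 averaged 4.78 ± 2.1 CPM in knockdown cells with thapsigargin and 1.64 ± 0.41 CPM in knockdown cells with DMSO, against 18.0 ± 3.1 CPM in control cells with thapsigargin and 11.7 ± 0.68 CPM in control cells with DMSO. With the knockdown in DMSO, Mmp13 rose (log2 change 2.67, adjusted p = 4.26e-12) and Mmp9 fell (-2.82, adjusted p = 5.02e-05, both edgeR).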
